A study of Mus musculus with 8 samples.

Results

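The replication-dependent histone genes were compared between WT and DKO S0 cells. They were taken as all genes of the count table whose GENCODE vM21 symbol starts with Hist, a cluster digit from 1 to 4, and h. The rule found 70 genes of 52636, of which 67 are annotated as protein-coding and 3 as pseudogenes (Hist1h2aj, Hist1h2al and Hist3h2bb-ps). By type there were 6 H1, 20 H2A, 19 H2B, 12 H3 and 13 H4 genes, and by cluster 56 Hist1, 10 Hist2, 3 Hist3 and 1 Hist4 genes. RNAseq was performed on S0 cells, the lineage-negative cells of the E12.5 mouse fetal liver that carry neither CD71 nor Ter119 and are labelled as erythroid precursors. There were 4 libraries of wild type (WT) embryos and 4 of Vps13a/Vps13c double knockout (DKO) embryos. Per the study's methods, the mice were kept on a C57BL/6J background, DKO embryos came from intercrosses of Vps13a+/-/Vps13c-/- mice, and the Vps13a allele lacks exon 6 after removal with β-actin-Cre, so that both genes were disrupted in the whole body. Intercrosses of this kind yield no WT embryos, so WT and DKO embryos were not littermates, and littermates that lack Vps13c alone are not among these libraries. The labels do not say whether each library came from a separate embryo, so p-values measure the spread between these libraries.

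Core histones H2A, H2B, H3 and H4 form the octamer around which DNA is wrapped, and H1 binds the linker DNA between nucleosomes. Replication-dependent histone genes lie in clusters and are transcribed mainly in S phase, when new DNA has to be packed. Their mRNAs are the known exception among metazoan mRNAs in that they end in a conserved stem-loop instead of a poly(A) tail, and SLBP, which binds this stem-loop, directs their 3′ end cleavage and translation. Some of these genes can also give polyadenylated mRNA from a site further downstream, as described for differentiating and non-dividing cells. The labels give the molecule as polyA RNA, and per the labels cDNA was made by template switching, so the counts stand for the histone RNA that this preparation captured. Reads of the ends with and without a tail were not told apart in these counts.

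A copy of the histone stem-loop was found in the GENCODE vM21 transcripts of 46 of the 70 genes, and it took 8 forms. In 17 of the other 24 genes the model ends under 50 bases past the stop codon, so a stem-loop beyond that end would not be found. The remaining genes without one are 3 pseudogenes and 4 genes with a longer end. The sequences below are shown because H4 genes and the other types end in different stem-loops. Capitals mark the 16 bases of the stem-loop and the lower-case letters the flanks, all 5′ to 3′ as in the transcript.
Hist1h1c: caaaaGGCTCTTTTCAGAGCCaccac
Hist1h2ac: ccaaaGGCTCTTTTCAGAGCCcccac
Hist1h3d: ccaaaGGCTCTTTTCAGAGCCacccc
Hist1h3f: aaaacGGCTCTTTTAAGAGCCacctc
Hist1h4i: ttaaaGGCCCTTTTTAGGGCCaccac
Hist4h4: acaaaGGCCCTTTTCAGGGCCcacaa
The form of Hist1h1c, Hist1h2ac and Hist1h3d was the most frequent, with 26 genes of the types H1, H2A, H2B and H3. The form of Hist1h3f was found in 6 genes, and that of Hist4h4 in 7 genes, all of them H4. The 12 H4 genes with a stem-loop used 4 forms, and 0 of these forms occurred in another type.

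Library totals were 42114489 to 50886469 counts in WT and 36981439 to 42587815 counts in DKO. Vps13a fell from 1943 ± 130 normalized counts (SD, n = 4) to 794 ± 194, with a log2 fold change of -1.29 and an adjusted p of 0.00247 (edgeR), and Vps13c was 583 ± 74.9 in WT and 816 ± 279 in DKO (adjusted p = 0.182). Vps13c counts therefore do not show the Vps13c knockout. Normalized counts are counts scaled by TMM to the mean library size. The sexes of the embryos were not balanced, since Xist was 0 to 30.1 in WT and 27043, 18029, 62.3 and 21393 in DKO, so that DKO replicate 3 was the only DKO library without high Xist. Erythroid markers were detected for 12 of 12 genes, with sums of 38483 to 45002 in WT and 35054 to 57055 in DKO, beside 10 of 10 hepatoblast markers with sums of 697874 to 947049 and 207602 to 802599. Mesenchyme markers were called higher in DKO for 7 of 8 genes (sums 1942 to 5647 in WT, 12127 to 43323 in DKO), progenitor markers were called lower for 6 of 10 genes (39948 to 52576, 18628 to 24443), macrophage markers were called lower for 1 of 10 genes (4943 to 7482, 1405 to 4421) and endothelial markers for 1 of 8 genes (12783 to 13330, 8647 to 14763). No list had a marker near 0. snRNA genes, whose transcripts have no poly(A) tail either, had 16 of 24 genes called higher and a median of 2.82 on the log2 fold scale. snoRNA genes, which also lack a poly(A) tail, had 12 of 53 called higher and a median of 0.85. Beside these counts, 6.19% of all 17378 genes tested were called higher and 2.43% lower, by the definition of a call given below. The part that these differences play in the histone values below was not tested. In bulk samples, fewer cells of a type and less RNA per cell cannot be told apart.

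Histone genes of every type were higher in DKO S0 cells. Of 62 genes that passed the filter on low counts, 39 were called higher and 0 lower, where a called gene has an adjusted p (edgeR) below 0.05 as well as an absolute log2 fold change over 1. Of all 17378 genes tested, 6.19% were called higher and 2.43% lower. The adjusted p alone was passed by 45 histone genes, all higher, beside 10.7% of all genes. At an unadjusted p below 0.05 there were 54 higher and 0 lower, beside 6305 of all 17378 genes in either direction. DESeq2 called 0 histone genes lower. The libraries of the groups did not overlap, with DKO above WT, for 49 of the 62 genes, beside 13.5% of all genes. The median log2 fold change was 1.61 (3.04-fold), against 0.03 over all genes tested. Set against the WT mean, the medians of the 4 DKO libraries were 1.66, 1.53, 1.75 and 1.57. Of the 39 called genes, 16 had their highest value in DKO replicate 3, 11 in replicate 1, 7 in replicate 4 and 5 in replicate 2, so no DKO library alone held the maxima. The 8 genes that were not tested did not exceed 23.1 normalized counts in any library. They include Hist1h1t, Hist1h2aa and Hist1h2ba, which are known as testis histones.

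**Figure D1:**
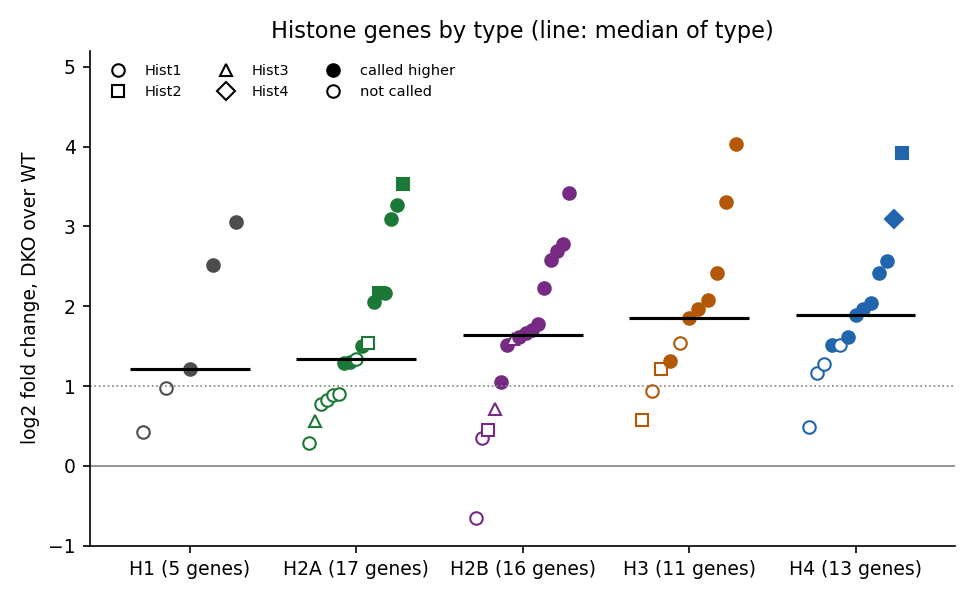
Log2 fold change (DKO over WT) of the 62 histone genes tested, grouped by type on the x axis, with symbols for the cluster, filled symbols for called genes, lines for the median of each type and a dotted line at the fold threshold of 1. Each type spans from genes below the threshold to genes above 3, and 1 gene, Hist1h2br, lies below 0.

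Among linker histones, Hist1h1a, Hist1h1b and Hist1h1d rose while Hist1h1c did not pass the test. Hist1h1d counted 102, 92.1, 86.0 and 146 in the WT libraries and 928, 708, 1012 and 907 in the DKO libraries. The lowest DKO library lay far above the highest WT library, and the log2 fold change was 3.06 ± 0.23 (SE, n = 4 and 4) with an adjusted p of 0.000159. Hist1h1a was 88.0, 121, 102 and 125 in WT against 682, 595, 534 and 695 in DKO, again without overlap (log2 fold change 2.52 ± 0.20, adjusted p = 0.000244). Hist1h1b was 588, 492, 456 and 779.8 in WT. In DKO it was 1558, 1333, 1436 and 1053, with a log2 fold change of 1.22 ± 0.20 (adjusted p = 0.00462).

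Hist1h1c had the highest counts of the linker histones and the smallest difference. It was 1672, 1509.5, 1712 and 1873 in WT and 1928, 2045, 2024 and 3087 in DKO. DKO replicate 4 stood apart from the other DKO libraries, and the groups did not overlap, but the log2 fold change of 0.43 ± 0.16 had an adjusted p of 0.0816. Hist1h1e was 294, 362, 284 and 499 in WT and 887, 882, 647 and 421 in DKO. Here DKO replicate 4 was the lowest DKO library and lay below WT replicate 4, and the log2 fold change of 0.98 ± 0.28 passed the adjusted p (0.0351, and over 0.05 in 5 of 8 fits that left out a library) but not the fold threshold. Hist1h1e overlaps Hist1h2be on the same strand, so reads of these genes may be split between them. Per kilobase of exon, the order in WT was Hist1h1c (1085 normalized counts), Hist1h1b (779), Hist1h1e (187), Hist1h1a (147) and Hist1h1d (14.3). In DKO the order was Hist1h1b (1810), Hist1h1c (1456), Hist1h1a (845), Hist1h1e (368) and Hist1h1d (120). The annotated models differ in length, at 741 bases for Hist1h1a, 743 for Hist1h1b, 1560 for Hist1h1c, 1930 for Hist1h1e and 7425 for Hist1h1d. A longer model lowers the value per kilobase for the same counts, so the order between genes also depends on the annotation. Over the 5 genes tested the median log2 fold change was 1.22, and 3 were called.

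**Figure D2:**
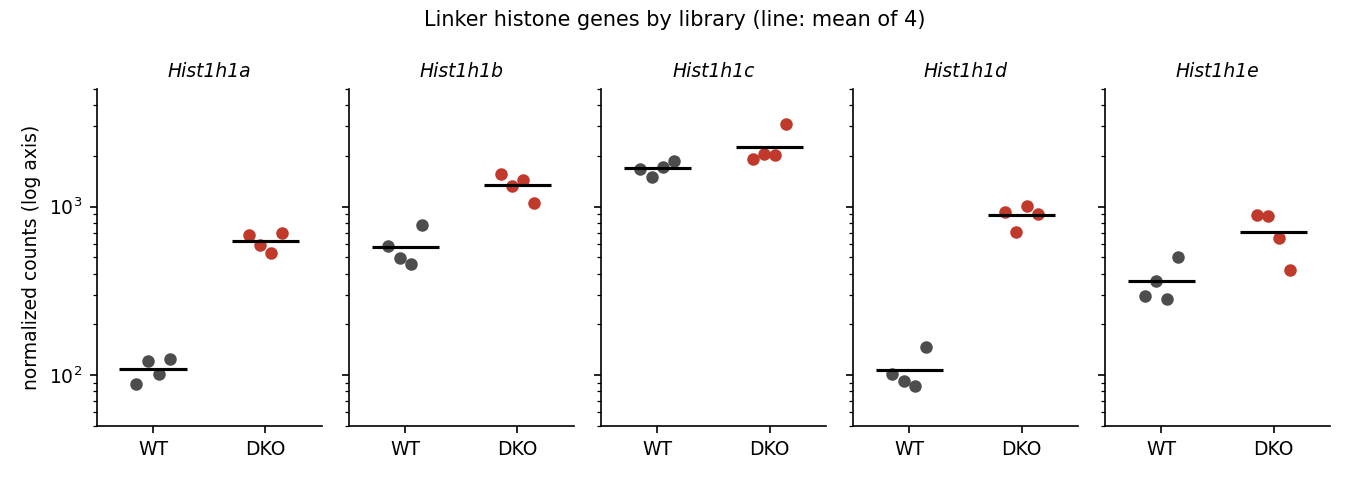
Normalized counts (log axis) of the 5 linker histone genes tested in each of the 4 WT and 4 DKO libraries, with lines for the means. For Hist1h1a and Hist1h1d the DKO points lie well above the WT points, for Hist1h1c they are close, and for Hist1h1e the groups overlap.

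H2A genes held the largest share of histone counts. Of 17 tested, 9 were called higher, 13 passed the adjusted p, and the median log2 fold change was 1.34. The most counts were those of Hist1h2ag and Hist1h2ah. Hist1h2ag was 3131, 3252, 3750.2 and 2929 in WT and 5599, 5529.5, 6264 and 5819.9 in DKO. Hist1h2ah was 3126, 3231, 3822 and 3141 in WT and 5672, 5921, 6783 and 6265 in DKO. Neither gene overlapped between the groups, and their log2 fold changes of 0.83 ± 0.09 (adjusted p = 0.00136) and 0.89 ± 0.10 (adjusted p = 0.00115) lay under the fold threshold with small errors. The H2A gene with the smallest difference was Hist1h2ao, with 1193, 1681, 1399 and 1176 in WT and 1358, 1703, 2188 and 1395 in DKO (log2 fold change 0.29 ± 0.18, adjusted p = 0.284). Its transcript holds a run of 12 A, as does that of Hist1h2ap (log2 fold change 0.77). The transcript of Hist1h2ac, with a log2 fold change of 3.26, holds a run of 15 A.

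The largest log2 fold change among H2A genes was that of Hist2h2ab, at 3.53 ± 0.68 (adjusted p = 0.00833), which rests on few counts in WT (1.0, 4.3, 7.8 and 3.5, normalized), against 50.4, 48.8, 76.9 and 24 in DKO. Hist1h2ac had a fold change nearly as large on more counts. It was 271, 232, 223 and 347 in WT and 2638, 2320.1, 2725 and 2634 in DKO. Every DKO library was several times any WT library, with a log2 fold change of 3.26 ± 0.16 and an adjusted p of 2.57e-05. Hist1h2ac encodes the same protein as 8 other H2A genes, Hist1h2ag, Hist1h2ao and Hist1h2ap among them, and within this group of 9 genes the log2 fold changes ran from 0.29 to 3.26 with a median of 1.29 and 4 called. Hist1h2ak was the only called histone gene whose groups overlapped, at 104, 169.5, 129 and 495 in WT and 1287, 1079.9, 374 and 1298 in DKO (log2 fold change 2.17 ± 0.55, adjusted p = 0.0232). Its log2 fold change was 2.90 without WT replicate 4, and its adjusted p was over 0.05 without WT replicate 1, 2 or 3 (0.0658, 0.0688 and 0.0598) or DKO replicate 4 (0.0512). Hist2h2aa1, whose transcript shares every stretch of 150 bases with other genes, Hist2h2aa2 among them, was 0, 0, 254 and 60.6 in DKO against 11.4 to 44.0 in WT (adjusted p = 0.485).

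Of 16 H2B genes tested, 11 were called higher and the median log2 fold change was 1.64. Hist1h2bc, the H2B gene with the most counts, did not pass the test. It was 1915, 1740.2, 2376 and 2057 in WT and 2513, 2178, 2179 and 3408 in DKO, and the groups overlapped (log2 fold change 0.35 ± 0.16, adjusted p = 0.152). Hist1h2bj, which had the second highest mean over all 8 libraries but not within WT or within DKO, was 205, 235, 166 and 216 in WT and 625, 574, 707 and 617 in DKO (log2 fold change 1.62 ± 0.18, adjusted p = 0.00132). The largest H2B difference was that of Hist1h2bh, at 59.7, 67.1, 58.2 and 36.7 in WT. In DKO it was 425, 582, 701 and 675, with a log2 fold change of 3.42 ± 0.28 and an adjusted p of 0.000243. Hist1h2br was the only tested member with a negative log2 fold change, at -0.66 ± 0.69 (adjusted p = 0.538), at 5.2 to 24.1 in WT and 3.5 to 13.6 in DKO.

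All 11 H3 genes tested had positive log2 fold changes, with 7 called and a median of 1.85. Hist1h3f showed the largest log2 fold change of the 62 genes. It was 20.9, 24.1, 19.1 and 25.4 in WT and 394, 349.9, 386 and 349 in DKO, a narrow spread in both groups, with a log2 fold change of 4.04 ± 0.25 (16.4-fold, adjusted p = 5.06e-05). Hist1h3d, the H3 gene with the most counts, was 709, 775, 456 and 606 in WT and 1955, 2111, 3052 and 2076 in DKO (log2 fold change 1.85 ± 0.20, adjusted p = 0.00115). Hist1h3e was 86.9, 118, 93.8 and 116 in WT against 1279.8, 772, 1063 and 1006 in DKO. Its log2 fold change was 3.31 ± 0.21 with an adjusted p of 6.01e-05. Hist2h3c2 had the smallest difference, at 10.5 to 23.0 in WT and 8.4 to 39.5 in DKO (log2 fold change 0.57 ± 0.59, adjusted p = 0.525). The 12 H3 genes encode 2 proteins. The 7 tested genes of the protein encoded by Hist1h3d, Hist1h3e and Hist1h3f had a median of 1.85, and the 4 genes of the other (Hist1h3a, Hist1h3g, Hist1h3h and Hist1h3i) a median of 1.75.

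The 13 H4 genes encode an identical protein, and all 13 were tested. Their median log2 fold change was 1.89, with 9 called, and 12 did not overlap between the groups. Hist1h4d, which had the highest mean over all 8 libraries but less than Hist1h4i in WT, was 486, 575, 545 and 638 in WT and 1794, 1511, 1825 and 1275 in DKO (log2 fold change 1.51 ± 0.15, adjusted p = 0.000782). Hist1h4i was 630.4, 698, 644 and 591 in WT and 828, 801, 1034 and 938 in DKO, closer together but without overlap. Its log2 fold change of 0.49 ± 0.13 was the smallest of the H4 genes (adjusted p = 0.0293, and over 0.05 in 6 of 8 fits that left out a library). Hist2h4 was 42.9, 49.1, 24.3 and 54.2 in WT and 559, 490.5, 755 and 773 in DKO, with a log2 fold change of 3.91 ± 0.31 and an adjusted p of 0.000226. Hist1h4i and Hist2h4 share the stem-loop form shown above for Hist1h4i, and their log2 fold changes were the smallest and the largest among H4 genes.

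Summed over its genes, each type was higher in every DKO library than in any WT library. The H3 sum, in normalized counts, was 1013, 1237, 794 and 949 in WT and 4379, 3887, 5190 and 4049.9 in DKO, a ratio of means of 4.39. The H4 sum was 1502, 1694, 1534 and 1678 in WT and 4994, 4159, 5263 and 4504 in DKO, a ratio of 2.95. The ratios for H1, H2A and H2B were 2.06, 2.02 and 2.0. The share of H3 genes in all histone counts was 4.47% ± 0.89 in WT and 8.89% ± 0.78 in DKO (SD, n = 4), and that of H2A genes was 61.1% ± 2.25 and 56.2% ± 1.5. All histone genes took 0.0478% to 0.0526% of the raw counts in WT and 0.102% to 0.117% in DKO. The 5 genes with the most counts in WT (Hist1h2ah, Hist1h2ag, Hist1h2ap, Hist1h2bc and Hist1h1c), with log2 fold changes from 0.35 to 0.89, made up 56.1% ± 4.07 of histone counts in WT and 42.1% ± 2.28 in DKO. Among the 21 tested genes with the highest mean over the 8 libraries the median log2 fold change was 0.98 with 10 called, and among the 21 in the middle of that order it was 1.89 with 18 called. The 20 genes with the lowest means had a median of 1.68 with 11 called. This order is not independent of the comparison, since the means include the DKO libraries.

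**Figure D3:**
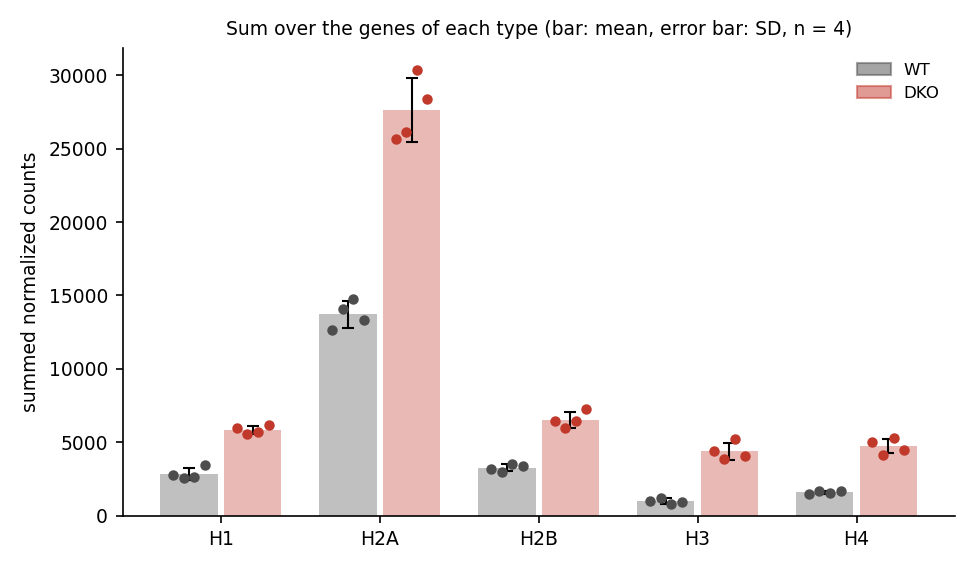
Summed normalized counts of the genes of each histone type (y axis) for the WT and DKO groups, with bars for means, error bars for the SD (n = 4) and a point for each library. H2A genes reach the highest sums, and in each type all DKO points lie above all WT points.

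Of the tested genes, 35 of 51 in Hist1, 3 of 7 in Hist2 and 0 of 3 in Hist3 were called higher, beside 6.19% of all genes. Log2 fold changes above 0 were found for 50 Hist1, 7 Hist2 and 3 Hist3 genes. The Hist1 genes lie on chromosome 13 in 2 blocks, at chr13:21715763-22043676 and chr13:23531050-23934851 (mm10), with Hist1h2al apart from both. In the first block 14 of 23 tested genes were called (median log2 fold change 1.54), and in the second 21 of 28, with a median of 1.82. H2A genes had a median of 0.89 in the first block and 1.34 in the second, H2B genes 1.67 and 2.0, and H3 genes 1.81 and 1.97, while H4 genes had the higher median in the first block (1.96 and 1.57). The Hist2 cluster (chr3:96219865-96270132) had 7 of 10 genes tested and 3 called (Hist2h2ab, Hist2h2ac and Hist2h4), with a median of 1.54. That median is the value of Hist2h2aa1 (1.54 ± 1.45), which was 0 in DKO replicates 1 and 2 and shares all its sequence stretches with other genes.

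Of the 3 Hist3 genes (chr11:58948920-58956830), 0 were called by edgeR, with 2 higher at an unadjusted p below 0.05 and 1 called by DESeq2. Hist3h2a was 952, 1196, 947 and 1192.5 in WT and 1339.7, 1429.7, 1452 and 2137 in DKO, without overlap but under the fold threshold (log2 fold change 0.57 ± 0.17, adjusted p = 0.0399, and over 0.05 in 6 of 8 fits that left out a library). It shares part of its model with Trim17 on the same strand. Hist3h2ba was 106 to 186 in WT and 105 to 483 in DKO (log2 fold change 0.71 ± 0.44, adjusted p = 0.279), and the pseudogene Hist3h2bb-ps was 7.8 to 27.5 and 35.7 to 59.8 (log2 fold change 1.59 ± 0.53, adjusted p = 0.0599). Hist4h4, alone in its cluster on chromosome 6, was 56.5, 57.7, 53.0 and 88.3 in WT and 649, 473, 657 and 403 in DKO. Its groups were far apart, with a log2 fold change of 3.09 ± 0.28 and an adjusted p of 0.000425.

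**Figure D4:**
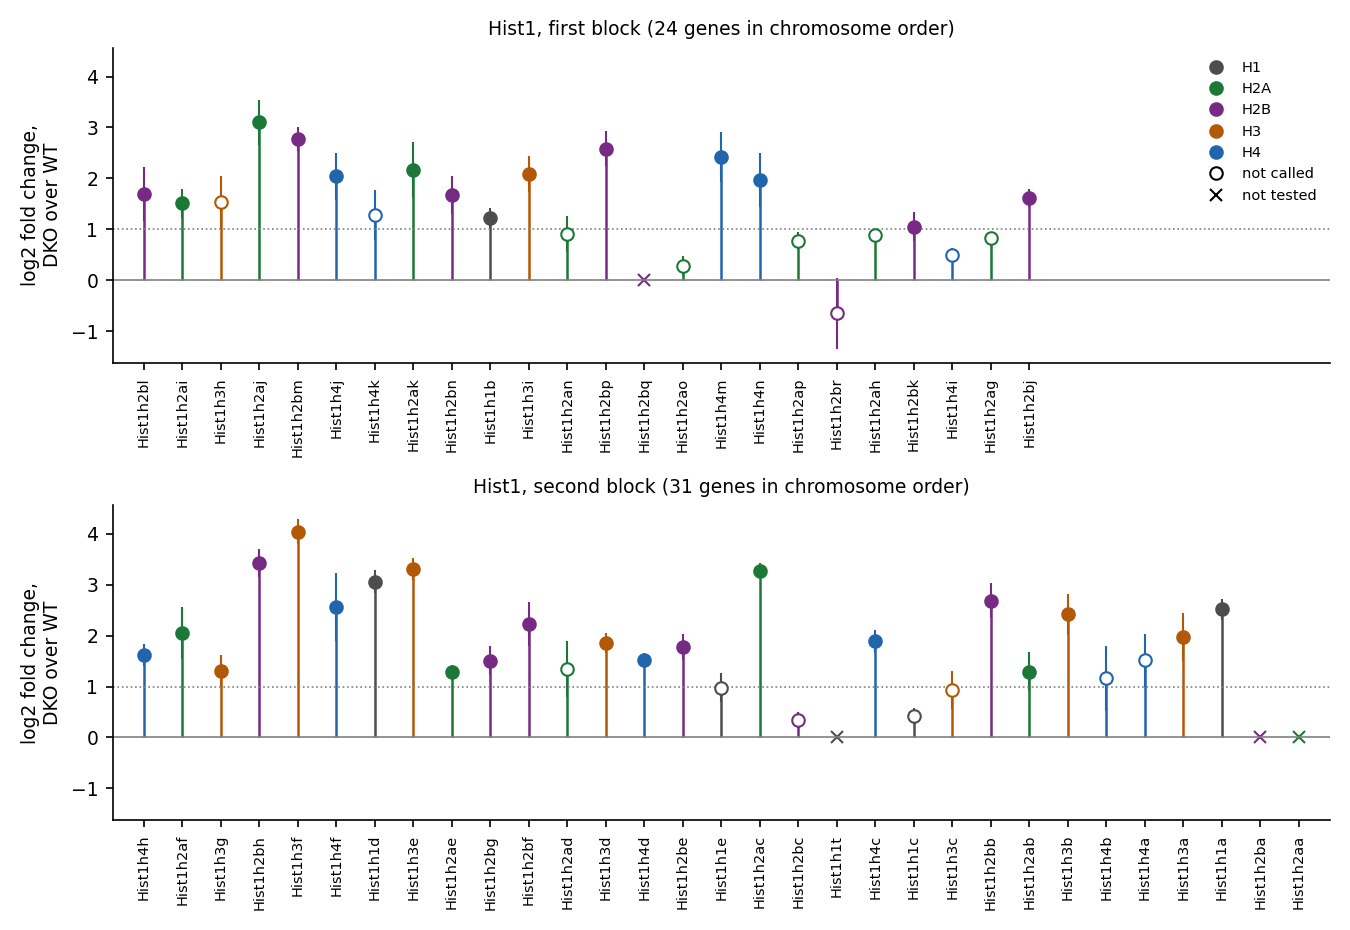
Log2 fold change (DKO over WT) of the Hist1 genes in the order in which they lie on the chromosome, in the first block (24 genes) and the second (31 genes), with vertical error bars for the SE, colours for the type, open circles for genes not called and crosses for genes not tested. High and low values are mixed along both blocks, with some runs of like values. In the first block the genes from Hist1h2ap to Hist1h2ag lie at 1.05 or below. In the second block those from Hist1h2bh to Hist1h3e lie at 2.57 or above. Neighbours such as Hist1h2ac and Hist1h2bc lie far apart in value while Hist1h2bh and Hist1h3f are both high.

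Most H2A and H2B genes lie in divergent pairs that share the DNA between their start sites. Of 15 divergent pairs of histone genes, 12 joined a tested H2A and a tested H2B gene, with 172 to 301 bases between the start sites. Both partners were called higher in 4 of these pairs, and the H2B partner had the larger log2 fold change in 7. The difference within a pair ran from 0.16 to 2.92 with a median of 0.835. It was largest for Hist1h2ac and Hist1h2bc, at 3.26 and 0.35, whose start sites are 250 bases apart. Hist2h2ac and Hist2h2be followed, at 2.17 and 0.45. For Hist2h2ac the values were 74.4, 106, 49.5 and 117 in WT and 397, 391.7, 377 and 394 in DKO, while Hist2h2be was 332, 278, 274.5 and 391 in WT and 438, 391.7, 396 and 516 in DKO. The ends of the Hist1h2bc and Hist2h2be models lie further downstream and hold no stem-loop. A further pair joined Hist1h2bh with Hist1h3f, whose start sites are 659 bases apart and whose log2 fold changes were the largest of the H2B and H3 genes.

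**Figure D5:**
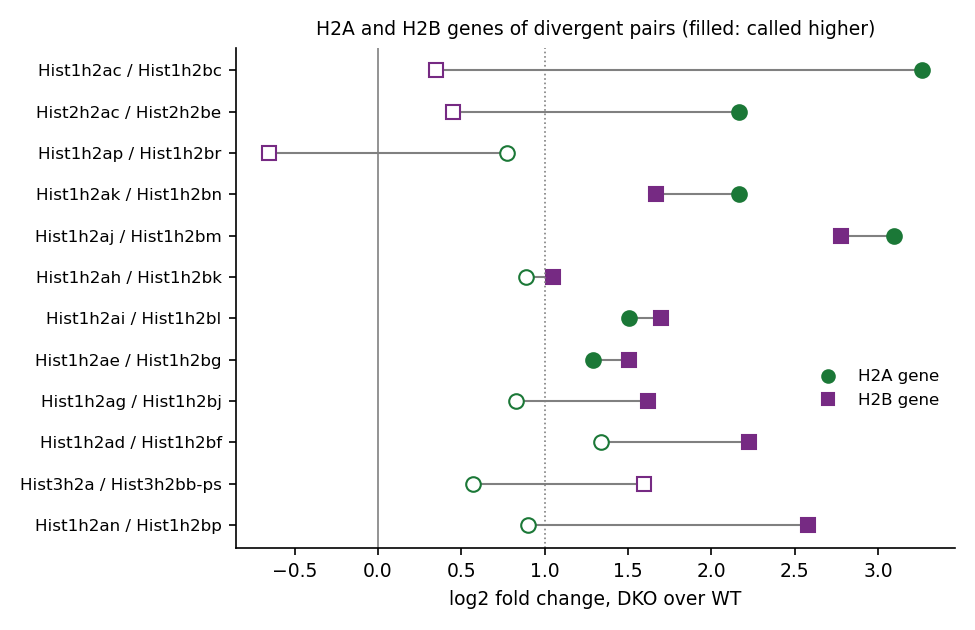
Log2 fold change (DKO over WT, x axis) of the H2A gene (circle) and the H2B gene (square) in each of the 12 divergent pairs with both genes tested, ordered by the difference, with filled symbols for called genes. Hist1h2ac and Hist1h2bc are the farthest apart, and in 4 pairs both symbols are filled.

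Promoter sequences, from RefSeq on GRCm38.p6, were matched for 62 of the 70 genes. Each runs from 250 bases before to 50 bases after the RefSeq start. The stretch for Hist1h2ac is shown because it spans the start sites of a pair with unequal values, that for Hist1h1d as the linker histone with the largest difference, and that for Hist1h4d as the H4 gene with the highest mean over all 8 libraries. The Hist1h1d stretch lies inside its GENCODE model, which starts at chr13:23553262. The counted bases of Hist1h1d thus include sequence upstream of the RefSeq start. Capitals mark matches, on either strand, to the TATA box (TATAAA), the CCAAT box, the octamer ATTTGCAT of H2B promoters, the H1 box (AAACACA) and the core of the H4 element (GGTCC).
Hist1h2ac, chr13:23683910-23684209, minus strand: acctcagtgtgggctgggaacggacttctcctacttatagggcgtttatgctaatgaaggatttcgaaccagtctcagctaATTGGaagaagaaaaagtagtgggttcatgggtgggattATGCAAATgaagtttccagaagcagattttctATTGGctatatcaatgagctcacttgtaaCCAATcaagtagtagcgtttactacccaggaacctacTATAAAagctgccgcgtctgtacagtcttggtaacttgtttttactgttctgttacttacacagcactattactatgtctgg
Hist1h1d, chr13:23554782-23555081, plus strand: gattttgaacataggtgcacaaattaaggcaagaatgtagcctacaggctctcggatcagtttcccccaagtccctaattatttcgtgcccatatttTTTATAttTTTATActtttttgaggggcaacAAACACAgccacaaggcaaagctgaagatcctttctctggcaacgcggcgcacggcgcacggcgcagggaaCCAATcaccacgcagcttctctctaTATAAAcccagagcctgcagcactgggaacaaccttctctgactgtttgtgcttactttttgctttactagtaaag
Hist1h4d, chr13:23581318-23581617, plus strand: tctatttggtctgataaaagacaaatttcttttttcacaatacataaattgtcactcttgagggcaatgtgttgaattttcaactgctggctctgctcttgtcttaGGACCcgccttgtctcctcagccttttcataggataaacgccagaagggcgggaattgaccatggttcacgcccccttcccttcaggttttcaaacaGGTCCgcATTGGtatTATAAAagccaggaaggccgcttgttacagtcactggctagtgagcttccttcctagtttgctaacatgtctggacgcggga
The TATA box was found in 35 of 62 histone promoters and in 13.6% of all 32851 promoters of the same length. The CCAAT box was found in 53 (37.4% of all), including every H1, H2A, H2B and H3 promoter matched but 3 of 12 H4 promoters. The octamer was found in 6 of 16 H2B and 7 of 18 H2A promoters and in 0 of the other types, beside 1.7% of all promoters. The H1 box was found in 5 of 6 H1 promoters (7.2% of all), and the H4 core in 11 of 12 H4 promoters (45.5% of all). A match to these letters describes the window only.

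The histone genes differ in how their models end and in how much sequence they share, and these groups were formed after the values were seen. Of the 4 genes whose model has a longer end without a stem-loop (Hist1h2bc, Hist2h2be, Hist1h2bq and Hist1h2br), 3 were tested and 0 called by edgeR or DESeq2, with 1 higher at an unadjusted p below 0.05 (median log2 fold change 0.35). Where the model ends near the stop codon, 9 of 13 tested genes were called, with a median of 1.67. Where it ends within 100 bases past the stem-loop, 15 of 22 were called, with a median of 1.62. Where it runs further, 14 of 22 were called, with a median of 1.65. Hist1h2ac, Hist1h3f, Hist2h4 and Hist4h4 are in this group with large differences. So are Hist1h1c, Hist1h4i and Hist3h2a, at log2 fold changes of 0.43, 0.49 and 0.57 and not called. The Hist1h2ac model runs 2010 bases past its stem-loop, that of Hist4h4 2445 bases and that of Hist3h2a 1643 bases. Which of the mRNA ends gave the reads was not tested.

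Alignments with a mapping quality under 20 were removed by the authors, so reads that could fall on several near-identical histone genes may be missing or misplaced. In 12 tested genes no 150-base stretch of the transcripts occurs in another gene, and 8 of these were called, with a median of 1.88. In 29 genes up to 50% of the stretches were shared, with 23 called and a median of 1.78. In 19 genes over 50% but not all were shared, with 8 called and a median of 1.28, and the 2 tested genes with all stretches shared were not called. A stretch also counted as shared where another gene is annotated over the same place, which does not by itself give reads several places. This is so for Hist3h2a (28.0%, with Trim17 only) and Hist2h2ab (52.5%, with the antisense gene Gm15444 only). Hist1h2ag, Hist1h2ah, Hist1h2ao and Hist1h2ap share 65.5%, 84.8%, 91.5% and 91.0% of their stretches, mostly among themselves and with other H2A genes, so the split of counts among them is uncertain. Hist1h1c, Hist1h1d and Hist2h4 share 0.0%. Whether reads were counted by strand is not given in the sources used here, and 26 of the 70 genes overlap another annotated gene.

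Replacement histones, which are made also outside S phase and mostly from genes with polyadenylated mRNA, were compared as a list of 12 genes. Of 11 tested, 2 were called higher, and the median log2 fold change was 0.12. H2afy2, which encodes a macroH2A, was 267 to 492 in WT and 1011 to 4279 in DKO (log2 fold change 2.35 ± 0.49, adjusted p = 0.0116), with 1 DKO library at the top of that range and the other three between 1011 and 1132. Without that library, DKO replicate 1, its log2 fold change was 1.56 (adjusted p = 0.00241). H1fx, a linker histone variant, was 44.1 ± 12.9 and 132 ± 64.1 (log2 fold change 1.58 ± 0.42, adjusted p = 0.0270, and over 0.05 in 4 of 8 fits that left out a library). H2afj was 9088 ± 939 and 13440 ± 2665 (log2 fold change 0.57 ± 0.15, adjusted p = 0.0251, and over 0.05 in 6 of 8 such fits). H2afy, the other macroH2A gene, was lower in DKO, at 20420 to 23488 in WT and 9881 to 19602 in DKO without overlap (log2 fold change -0.58 ± 0.17, adjusted p = 0.0422, and over 0.05 in 6 of 8 such fits). It did not reach the fold threshold. H3f3b and H2afz, the members with the most counts, differed little. H3f3b was 63810 ± 1525 and 75720 ± 6330 (log2 fold change 0.25 ± 0.08, adjusted p = 0.0491, and over 0.05 in 7 of 8 such fits), and H2afz was 55120 ± 2769 and 57760 ± 9961 (adjusted p = 0.725). H1f0 was 9111 ± 1451 and 12080 ± 2385 (adjusted p = 0.0975).

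Genes of DNA replication did not share the direction of the histone genes. Of 48 tested, 0 were called in either direction, 40 had log2 fold changes below 0, and the median was -0.24. By the adjusted p alone 20 were lower and 0 higher, beside 1878 lower and 1867 higher of all 17378 genes. At an unadjusted p below 0.05 there were 26 lower and 0 higher, beside 6305 of all genes in either direction. DESeq2 called 0 of these replication genes. Mcm4, a subunit of the replicative helicase, was 12755, 11378, 10222 and 12282 in WT and 6977, 7379, 7761 and 6449 in DKO, without overlap (log2 fold change -0.71 ± 0.09, adjusted p = 0.00263). Mcm6, of the same complex, had a log2 fold change of -0.65 ± 0.09 (adjusted p = 0.00308).

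Of 17 tested genes for the transcription, 3′ end cleavage and decay of histone mRNA (Zcchc6 and Zcchc11 of the list of 19 were not matched by symbol), 0 were called by edgeR or DESeq2, 8 were lower and 1 higher at an unadjusted p below 0.05, and the median log2 fold change was -0.22. Slbp was 12586, 12289.8, 10509 and 12757 in WT and 9426, 9407, 11945 and 8918 in DKO. The groups overlapped, with a log2 fold change of -0.28 ± 0.11 and an adjusted p of 0.0971. Npat, which activates histone transcription, was 1915, 1976, 1878 and 2242 in WT and 1414, 1604, 1931.5 and 1512 in DKO (log2 fold change -0.31 ± 0.12, adjusted p = 0.0872). Sympk, a scaffold of the cleavage complex, was 828 ± 20.4 and 1353 ± 51.6 (log2 fold change 0.71 ± 0.10, adjusted p = 0.00271), and Cpsf3, its endonuclease, was 8080 ± 582 and 5797 ± 465 (log2 fold change -0.48 ± 0.09, adjusted p = 0.00672). Both passed the adjusted p without reaching the fold threshold. Of 16 histone chaperones, which carry new histones to DNA, 0 were called by edgeR or DESeq2, and the median was -0.13. At an unadjusted p below 0.05, 5 were lower and 2 higher. Beside these counts and those of the mRNA genes above, 6305 of all 17378 genes passed this cut in either direction. Nap1l4 had a log2 fold change of -0.62 ± 0.07 (adjusted p = 0.00141) and Rbbp7 of -0.35 ± 0.08 (adjusted p = 0.0136).

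Other genes inside the histone clusters were compared as neighbours. The 5 tested protein-coding neighbours (Zfp184, Prss16, Hfe, Slc17a2 and Slc17a3) all had log2 fold changes below 0, with a median of -0.85. Slc17a3, a solute carrier, fell from 95.9 ± 25.3 to 33.5 ± 11.7 (log2 fold change -1.52 ± 0.41, adjusted p = 0.0282). Zfp184 was 383 ± 40.4 and 205 ± 17.9 (log2 fold change -0.91 ± 0.19, adjusted p = 0.0115). The 10 tested neighbours of other kinds all had log2 fold changes above 0, with 6 called higher, beside 6.19% of all genes. Since 6 of these 10 overlap a histone gene and strand use is not known, their counts are uncertain. Gm11336 was called higher but is not among these overlapping genes. It shares sequence stretches with H2A genes, Hist1h2ag and Hist1h2ai among them, so its counts are uncertain as well.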

How the data were processed

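RNAseq of S0 cells of the E12.5 fetal liver was analysed for 4 WT and 4 DKO libraries, grouped by the sample labels. The authors trimmed reads with fastp 0.21.0, mapped them to mm10 with HISAT2 2.2.1, removed alignments with a quality under 20 and deposited raw counts per gene made with StringTie 1.3.3b and prepDE. The annotation release of the counting could not be settled from the sources used here. All 70 histone identifiers matched GENCODE vM21 with their version. Of all 52636 identifiers 52489 matched without the version and 49121 with it.

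Genes were filtered with filterByExpr, scaled by TMM and compared with edgeR 4.0.16 (R 4.3.3, robust quasi-likelihood test, Benjamini-Hochberg adjustment over 17378 genes, no covariate). For a gene whose groups did not overlap, an exact two-sided permutation test over the 70 arrangements gave p = 0.0286, the smallest it can give. Medians by library used a pseudocount of 1. The steps were tested on simulated counts. Depth limits genes with few counts, as seen in their SE.

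The members, lists and tests were chosen with earlier results of these data known. Named were, in each type, the 2 genes with the most counts and those with the largest and smallest log2 fold change, all tested H1, Hist3 and Hist4 genes and any gene below 0. For the other lists the 2 genes with the smallest p, Slbp and Npat were named. Hist1h2ac, Hist1h2ak, Hist1h2ap, Hist2h2aa1, Hist2h2ac, Hist2h2be, H1fx, H2afy, H3f3b, H2afz, H1f0 and the genes inside the clusters were named after their values were seen. Alternatives were DESeq2 1.42.0, other scalings and filters, no fold threshold, a replicate block and each library left out. Same-numbered libraries did not deviate together (correlations from -0.09 to 0.04), so the numbers were not taken as pairs.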

Additional observations from a re-analysis of the deposited data

Results flagged for a closer look

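Of 58 groups of 4 libraries checked (the named histone genes and the sums by type), 6 held a library far from the other three, where chance gives about 1 in 20. Hist1h1c was 3086.5 normalized counts in DKO replicate 4 and 1928 to 2045 in the other DKO libraries. Hist3h2a was 2136.8 in DKO replicate 4 and 1339.7 to 1452 in the others. Hist1h3d was 3052.2 in DKO replicate 3 and 1955 to 2111 in the others. Hist1h2ah was 3821.5 in WT replicate 3 and 3126 to 3231 in the others. Hist4h4 was 88.3 in WT replicate 4 and 53.0 to 57.7 in the others. Hist2h3c2 was 10.5 in WT replicate 4 and 22.4 to 23.0 in the others.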

How the results depend on the processing

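The 24 histone genes named by rule kept their sign in every fit that tested them, but Hist1h2br, Hist2h2ab, Hist2h3c2 and Hist3h2bb-ps were not tested with at least 10 counts in every library. Histone genes called higher were 39, and 29 to 40 with single libraries left out, 42 with DESeq2 (39 of them also called by edgeR), 35 without a filter or with at least 10 counts in every library, and 31 with the replicate block. With the replicate block 613 genes of all were called higher and the H2A median was 1.29, and same-numbered libraries were no better matched than others (1 of 8 libraries correlated best with its own number). Of all genes, DESeq2 called 1653 higher, and without a fold threshold 1867 were higher and 1878 lower. The medians that moved by more than the spread between libraries were H1 1.86 and Hist2 2.23 (DESeq2), all histone genes 1.71, H2A 1.46, H3 1.96 and Hist1 1.73 (upper-quartile scaling, which moves the median of all genes from 0.03 to 0.14), H2A 1.38 (TMM from other protein-coding genes), H1 1.84, H2A 1.3 and Hist2 2.53 (no filter), and H3 2.04 and Hist2 2.18 (at least 10 counts). Without a filter more genes with few counts enter these medians. Leaving out each library gave 566 to 1148 genes higher and 243 to 521 lower (566 and 258 without WT replicate 1, 650 and 260 without WT replicate 2, 633 and 243 without WT replicate 4), and medians of 1.25 to 1.42 for H2A, 1.69 to 2.09 for H3, 1.68 to 1.94 for H4 and 1.27 to 2.09 for Hist2. Genes with few counts in WT have wide errors at this depth.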
